A study of Mus musculus with 6 samples.

Results

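Genes of DNA repair were examined in CD4+ T cells of mice with a conditional deletion of Cd2bp2. Its product, CD2BP2/U5-52K, is a protein of the U5 small nuclear ribonucleoprotein of the spliceosome. The 37 genes are a list of symbols covering nucleotide excision repair, translesion synthesis, nucleotide supply, the Fanconi anemia pathway, homologous recombination, mismatch repair, and end joining with single-strand break repair. They were looked up by symbol in a table of 56246 genes, of which 25351 carried a symbol, and in the tables of 5 classes of splicing events. All 37 were found and all 37 were among the 11001 genes tested, although Fanca and Rad51c reached the required mean of 100 normalized counts in Control only.

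Sorted CD4+ T cells of the spleen and the lymph nodes were sequenced for their RNA, with 3 mice in the cKO group and 3 in the Control group. All cKO mice were U5-52Kf/f with the transgene (CD4-Cretg), and their libraries are named KO_7.8, then KO_9.10, then KO_11.12. In the Control group, CTRL_1.2 as well as CTRL_3.4 came from mice of genotype U5-52Kwt/f that also carried CD4-Cretg, and CTRL_5.6 came from a U5-52Kf/f mouse that was CD4-Cre-. Values of single libraries follow this order. All mice were young adult males according to the methods of the study. CD4-Cre is active from the double-positive stage of the thymus, so the deletion precedes the sorted population and is shared with CD8+ T cells.

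Each repair pathway removes a different kind of damage. Nucleotide excision repair cuts out a short stretch of a strand around a bulky lesion, and translesion polymerases copy across lesions that stop the replicative enzymes. Fanconi proteins act on crosslinks between the strands and hand over to homologous recombination, which restores a broken end from the sister chromatid and is therefore tied to S and G2 phase, while end joining seals breaks in resting cells such as most peripheral T cells and also serves the assembly of antigen receptor genes. Several repair genes, Polk, Polh, Xpc, Ddb2, Rrm2b, Fancc and Ercc5 among these 37, are known targets of p53, in part from human cells.

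The libraries held between 69981159 and 82286366 reads in genes in cKO and between 56995121 and 75606222 in Control. Cd2bp2, the deleted gene, averaged 832 ± 81.4 normalized counts in cKO and 2613 ± 10.6 in Control (SD, n = 3 each), and no library overlapped, for which an exact permutation test allows no p below 0.1. The cKO mean was 31.8% of the Control mean, so part of the RNA remained. Cd4 ranged from 54431 to 59883 normalized counts in cKO and from 57495 to 62831 in Control. The summed level of 8 B cell markers was lower in cKO (4598 to 8553) than in Control (9792 to 12755). The summed level of 10 myeloid markers was 57890 in KO_7.8 and 21023 and 21917 in the other cKO libraries, against 21960 to 30280 in Control. Most of it was Ctss (37799 in KO_7.8, 17069 and 17117 in the other cKO libraries, 19453 to 25707 in Control). Lyz2 had 6603 in KO_7.8, then 1032 and 1302, against 687 to 1336 in Control. S100a8 ran the other way in cKO, at 11.6 in KO_7.8, then 75.8 and 73.5. The summed level of 5 NK cell markers was 20344 to 24837 in cKO and 9096 to 14721 in Control, most of it Nkg7 (17344 to 20875 in cKO and 7082 to 12454 in Control). That of 5 CD8+ T cell genes was 18895 to 25652 in cKO and 8777 to 14669 in Control, most of it Ccl5 (17739 to 24502 in cKO and 6778 to 13066 in Control), and the other 4 genes, Cd8a and Cd8b1 among them, summed to 1150 to 1619 in cKO and 1413 to 1999 in Control. None of these markers was at 0 in every library. In bulk RNA a change in the share of a cell type and a change in the RNA per cell cannot be told apart, and the part of these other cells in the results below was not tested.

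Across the list, 1 gene rose and none fell. Polk, which encodes the translesion polymerase kappa, passed limma's test at an adjusted p under 0.05, and this share of 1 of 37 stood beside 0.973% of all genes tested in either direction and 0.673% for genes higher in cKO. No member was lower past that threshold, against 0.3% of all genes. At an unadjusted p under 0.05 limma gave 2 members higher and 2 lower (5.41% each), beside 9.25% of all genes higher and 7.44% lower. edgeR also called 1 member higher and none lower, beside 0.664% and 0.355% of all genes. DESeq2, which called 8.42% of all genes, called Polk higher and Fanci and Rad50 lower. No member passed the stricter rule that also asks for an absolute log2 fold change above 1, against 0.564% of all genes. The median log2 fold change of the 37 genes was -0.11, beside 0.01 over all genes tested, and 25 of the 37 (67.6%) had a negative fold change, beside 48.2% of all genes. Only 2 members, Polk and Fanci, had an absolute log2 fold change above 0.5 (5.41%, beside 13.2% of all genes). The 3 cKO libraries lay above the 3 Control libraries for 3 members, Polk, Ercc3 and Nbn, beside 12.6% of all genes, and below them for 8 members, beside 11.5% of all genes.

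**Figure D1:**
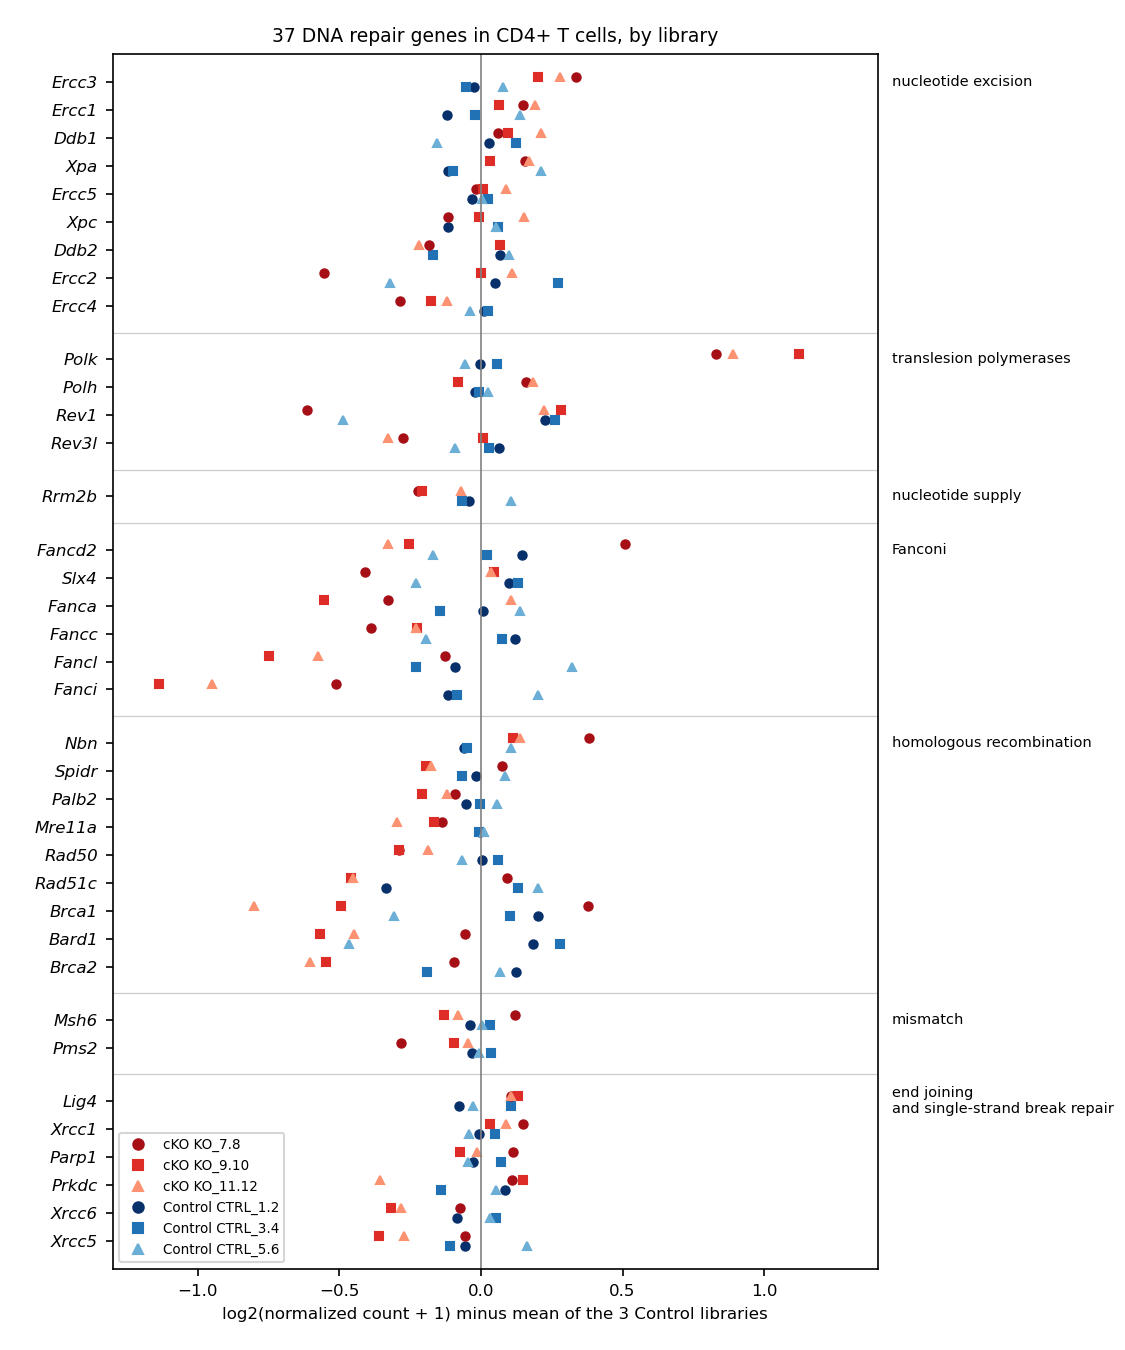
Each of the 37 genes by library, as log2(normalized count + 1) minus the mean of the 3 Control libraries, grouped by pathway, with cKO libraries in red in the upper line of each gene and Control libraries in blue in the lower line. Polk lies to the right in all 3 cKO libraries and Fanci to the left, while most other genes lie within 0.5 of the Control mean.

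Among the translesion polymerases, Polk had 2587, 3172 and 2699 normalized counts in cKO, against 1455, 1516 and 1401 in Control. Every cKO library was above every Control library, and CTRL_5.6, the library without Cre, was the lowest of them. The log2 fold change was 0.95 (SE 0.11), and the gene was called with an adjusted p of 0.0198 by limma, 0.022 by edgeR and 2.56e-10 by DESeq2. With 3 libraries against 2 the fold change kept its size, between 0.86 and 1.01, but limma's call was lost without KO_9.10 (adjusted p = 0.0839), KO_11.12 (0.116), CTRL_1.2 (0.142), CTRL_3.4 (0.0946) or CTRL_5.6 (0.0646) and stayed only without KO_7.8 (0.0198). Over all genes, calls fell from 107 to between 26 and 36 in the fits that lost the Polk call. They numbered 128 without KO_7.8. Polk lies on chromosome 13 (GRCm38 chr13:96480690-96542579, minus strand).

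The other translesion polymerases gave no call. Polh, the polymerase that copies across ultraviolet photoproducts, averaged 966 ± 95 normalized counts in cKO and 906 ± 14.4 in Control (log2 fold change 0.09, limma adjusted p = 0.779). Rev3l, the catalytic subunit of polymerase zeta, averaged 2799 ± 361 in cKO and 3197 ± 180 in Control (-0.20, adjusted p = 0.455 in limma). Rev1, the scaffold that brings these polymerases together, had 725, 1351 and 1296 normalized counts in cKO, against 1298, 1332 and 792 in Control. One library of each genotype group was low, KO_7.8 and CTRL_5.6, and the fold change changed sign without KO_7.8 (0.25), CTRL_1.2 (0.08) or CTRL_3.4 (0.09). The same 2 libraries held the highest summed levels of erythroid markers, 3085 in KO_7.8 beside 331 and 387 in the other cKO libraries, and 4080 in CTRL_5.6 beside 171 and 487 in the other Control libraries. The 2 libraries were also the lowest of their groups for Ercc2 and Slx4. Whether these levels move together for a shared reason was not tested.

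**Figure D2:**
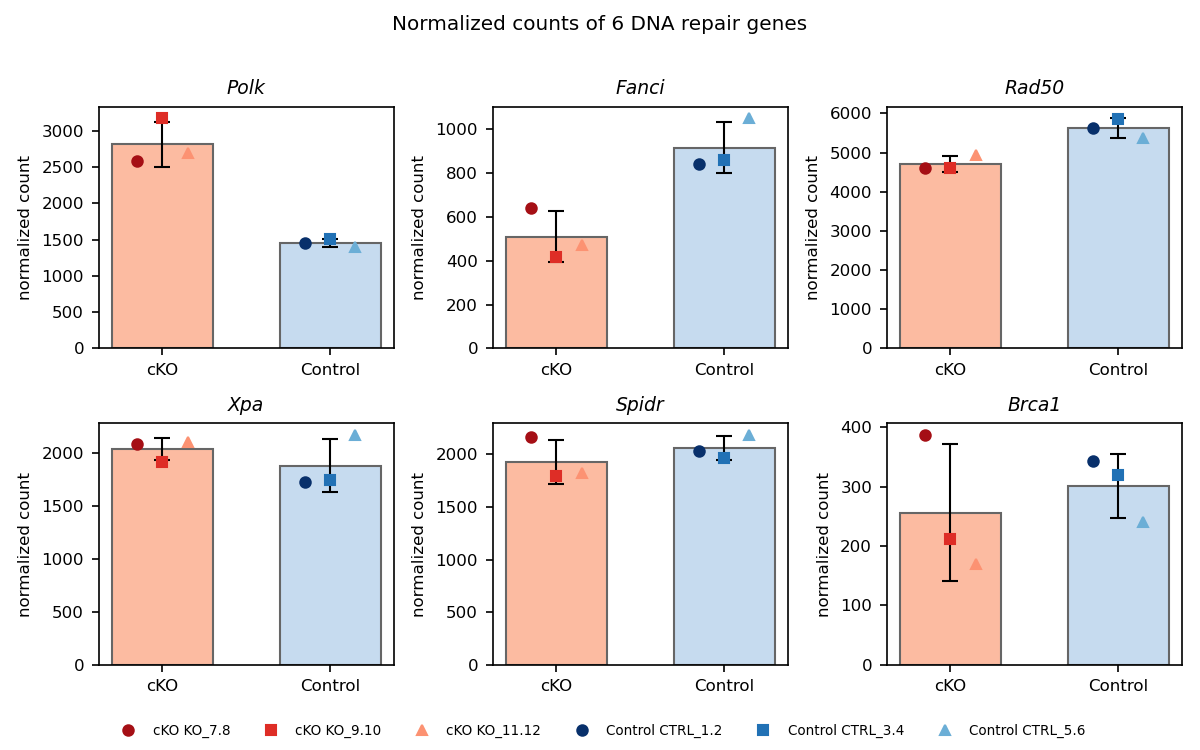
Normalized counts of Polk, Fanci, Rad50, Xpa, Spidr and Brca1, with points for single libraries, bars for the mean of 3 libraries and error bars for the SD. Polk is higher and Fanci and Rad50 are lower in every cKO library, the groups overlap for Xpa and Spidr, and Brca1 varies most in cKO, with KO_7.8 high.

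Nucleotide excision repair, with 9 genes, was called in no member. Its median log2 fold change was 0.03, and 6 members had positive and 3 negative values, within -0.19 to 0.27. Ercc3, the helicase of TFIIH that opens the strands around the lesion, had 2721, 2477 and 2614 normalized counts in cKO, against 2116, 2076 and 2275 in Control. The groups did not overlap, and the log2 fold change was 0.27 (SE 0.09, limma adjusted p = 0.222). Its partner helicase Ercc2 ran from 953 to 1513 in cKO and from 1123 to 1691 in Control. Of the damage sensors, Ddb1 averaged 24607 ± 1366 in cKO and 22665 ± 2184 in Control, Ddb2 averaged 1022 ± 112 in cKO and 1104 ± 110 in Control, and Xpc averaged 4227 ± 398 in cKO and 4191 ± 284 in Control. Xpa, which verifies the damage, averaged 2030 ± 104 in cKO and 1878 ± 250 in Control. For the nucleases that cut on either side, Ercc5 averaged 3030 ± 117 in cKO and 2976 ± 60.6 in Control, Ercc1 averaged 2583 ± 116 in cKO and 2358 ± 213 in Control, and Ercc4 averaged 2797 ± 162 in cKO and 3197 ± 76.6 in Control. Ercc4 was the only gene of this pathway with all cKO libraries below all Control libraries (log2 fold change -0.19, limma adjusted p = 0.332).

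Of the 7 known p53 targets in the list, 1 rose, again Polk (14.3%, beside 0.673% of all genes tested). The other 6 had log2 fold changes between -0.28 for Fancc and 0.09 for Polh. Rrm2b, the p53-inducible subunit of ribonucleotide reductase that supplies deoxynucleotides for repair outside S phase, averaged 4570 ± 266 normalized counts in cKO and 5127 ± 337 in Control, with all cKO libraries below all Control libraries (log2 fold change -0.17, limma adjusted p = 0.423).

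In the Fanconi pathway all 6 genes had negative fold changes, with a median of -0.27, and none was called. Fanci, which is ubiquitinated with Fancd2 and clamps the pair onto DNA, had 638, 414 and 471 normalized counts in cKO, against 839, 858 and 1047 in Control. The highest cKO library, KO_7.8, remained below the lowest Control library. The log2 fold change was -0.87 (SE 0.19, limma adjusted p = 0.111; edgeR 0.107; DESeq2 0.00339), and without KO_7.8 it was -1.04 with a limma adjusted p of 0.0416. The fit without KO_7.8 called 128 genes among all genes, in place of 107. Its partner Fancd2 had 319, 188 and 178 normalized counts in cKO and 248, 227 and 199 in Control. Here KO_7.8 was the highest and the other cKO libraries the lowest of all 6, and the fold change of -0.02 turned positive in edgeR (0.004) and DESeq2 (0.007). Fancl, the ubiquitin ligase that modifies both, averaged 539 ± 125 in cKO and 751 ± 154 in Control (-0.48, limma adjusted p = 0.334), with overlap through KO_7.8. Fancc and Fanca belong to the core complex around this ligase. Fancc averaged 788 ± 49.7 in cKO and 960 ± 109 in Control, without overlap, and Fanca was low in every library, at 69.0 to 110 in cKO and 92.0 to 112 in Control. Slx4, the nuclease scaffold, averaged 1576 ± 267 in cKO and 1692 ± 225 in Control.

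Homologous recombination had 8 of 9 members with negative fold changes (median -0.26), and none was called by limma. Rad50, the ATPase of the complex that holds and resects broken ends, had 4597, 4598 and 4939 normalized counts in cKO, against 5636, 5865 and 5375 in Control. The groups were separate and the spread within each was small, with a log2 fold change of -0.26 (SE 0.08) and an adjusted p of 0.204 in limma, 0.158 in edgeR and 0.017 in DESeq2. Its nuclease partner Mre11a averaged 2580 ± 148 in cKO and 2960 ± 19.9 in Control, also without overlap (-0.20, limma adjusted p = 0.316). The last subunit, Nbn, which recruits the ATM kinase, ran the other way, at 4032, 3346 and 3405 in cKO against 2968, 2988 and 3329 in Control (0.21, limma adjusted p = 0.384). Palb2, the bridge between Brca1 and Brca2, averaged 626 ± 26.4 in cKO and 689 ± 26.3 in Control. Spidr, a scaffold protein of recombination known from human cells, averaged 1927 ± 208 in cKO and 2057 ± 113 in Control, and Rad51c, which acts in strand exchange, had 80.0 to 118 in cKO and 87.3 to 127 in Control.

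Brca1, Bard1 and Brca2 are known to be transcribed mainly in dividing cells. Brca1, a ubiquitin ligase that directs resection, had 387, 211 and 170 normalized counts in cKO, against 343, 320 and 240 in Control. Its partner Bard1 had 286, 200 and 218 in cKO, against 338, 361 and 215 in Control. Brca2, which acts after resection, had 566, 413 and 397 in cKO, against 657, 529 and 633 in Control. In each of the 3 genes KO_7.8 was the highest cKO library and the groups overlapped. The summed level of 30 cell cycle genes was 114780 in KO_7.8 and 72136 and 76301 in the other cKO libraries, against 79199, 77620 and 72974 in Control (exact permutation test, two-sided, p = 0.9). Its highest gene, Mcm6, had 17342 in KO_7.8, 13700 and 13916 in the other cKO libraries and 13911.5 to 16358.8 in Control. Lower genes of the sum could differ more. Top2a had 4374 in KO_7.8, then 1332 and 1110, against 1451 to 1967 in Control. Cdk1 had 569, 107 and 118, against 137 to 212. Cdt1, at 2063, 2057 and 2449 against 2237 to 2369, was not raised in KO_7.8. The coefficient of variation of Brca1 was 44.9% in cKO and 17.8% in Control, while that of Lig4, an end joining gene, was 0.949% in cKO and 6.77% in Control. Without KO_7.8 the log2 fold changes were -0.65 for Brca1, -0.57 for Brca2 and -0.29 for Fancd2, and none of these was called (limma adjusted p at least 0.144). The part of the cell cycle genes in these levels was not tested.

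Mismatch repair and end joining gave no call. Msh6, which recognizes single mismatches, averaged 3877 ± 364 normalized counts in cKO and 3951 ± 98.9 in Control. Pms2, the endonuclease that nicks the strand to be replaced, averaged 3142 ± 266 in cKO and 3456 ± 83.7 in Control, with all cKO libraries below all Control libraries. Both subunits of the Ku ring, which binds broken ends first, had fold changes of similar size, with Xrcc6 at 5740 ± 536 in cKO and 6687 ± 340 in Control (log2 fold change -0.22) and Xrcc5 at 2427 ± 267 in cKO and 2844 ± 289 in Control (-0.23). The limma adjusted p was 0.318 for Xrcc6 and 0.408 for Xrcc5, and in both genes KO_7.8 lay within the Control range. Prkdc, the kinase recruited by Ku, averaged 2611 ± 479 in cKO and 2644 ± 222 in Control, and Lig4, the ligase that closes the break, averaged 704 ± 6.69 in cKO and 652 ± 44.1 in Control. Xrcc1, the scaffold of single-strand break repair, averaged 2308 ± 92.5 in cKO and 2167 ± 72.1 in Control, and Parp1, the sensor of nicks, averaged 9073 ± 604 in cKO and 9010 ± 399 in Control.

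A wider list held 84 other repair genes, of which 78 were tested. In limma 1 of the 78 was higher and none lower, beside 0.673% and 0.3% of all genes. That gene was Mgmt, the methyltransferase that takes alkyl groups off guanine, with 2332, 2406 and 1908 normalized counts in cKO, against 893, 774 and 642 in Control (log2 fold change 1.53, SE 0.16, limma adjusted p = 0.0122). The groups were far apart, but the call was lost without KO_9.10 (adjusted p = 0.0764 in limma) or CTRL_3.4 (0.0819). Those fits called 31 and 27 genes among all genes, in place of 107. At an unadjusted p under 0.05 limma gave 2 of the 78 higher (2.56%, beside 9.25% of all genes) and 12 lower (15.4%, beside 7.44%). edgeR called 1 higher (1.28%, beside 0.664%) and none lower (beside 0.355%), and DESeq2 called 2 higher (2.56%, beside 4.44%) and 7 lower (8.97%, beside 3.98%). The median log2 fold change of the 78 was -0.12, beside -0.11 for the 37 and 0.01 for all genes tested.

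Splicing was the second readout, since U5-52K belongs to the spliceosome. The inclusion level is the share of transcripts that hold an exon or a splice site, computed from read counts of both forms divided by the form lengths. A total of 254 events in 30 of the 37 genes had enough reads to be tested, and Bard1, Brca1, Fanca, Fancd2, Lig4, Msh6 and Rad51c had none. Exons are shown for Spidr, the 1 member with a called event, and for Xpa, where the next event lay. Inclusion was lower in cKO for Spidr exon 14 and for the Xpa exon. Spidr exon 13 and the start of exon 15 are shown as the neighbours of exon 14. Spidr exons 13 and 14 (of 20 in Spidr-201) lie on the minus strand at chr16:15912669-15912809 and chr16:15912519-15912578. They are shown joined to the first 30 bases of exon 15 (chr16:15904057-15904261), with the skipped exon 14 in capitals. The Xpa exon, which spans chr4:46180207-46180398 on the minus strand, is shown up to the stop codon, in capitals, that ends the reading frame of Xpa-204. Sequences and positions are those of GENCODE M21 on GRCm38, given 5′ to 3′.
Spidr exons 13, 14 and start of 15: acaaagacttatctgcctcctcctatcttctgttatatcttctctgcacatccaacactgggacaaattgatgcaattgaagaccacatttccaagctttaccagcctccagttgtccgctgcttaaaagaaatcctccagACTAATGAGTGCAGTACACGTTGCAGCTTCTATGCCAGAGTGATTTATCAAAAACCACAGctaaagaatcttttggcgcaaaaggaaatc
Xpa exon 4 of Xpa-204, first 62 bases: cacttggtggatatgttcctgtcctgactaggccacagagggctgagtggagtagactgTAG

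In Spidr the 60 bases of exon 14 keep the reading frame, and the intron before it is only 90 bases long, while the intron after it spans 8257 bases. Exon 14 was included at 86.3%, 93.1% and 80.3% in the 3 cKO values, against 99.1%, 98.3% and 97.9% in the 3 Control values (the tables do not name the library of each value). The groups did not overlap, and the spread was wider in cKO. Reads that skip the exon numbered 14, 10 and 26 in cKO, against 1, 2 and 2 in Control, beside 463 inclusion reads in cKO and 449 in Control over the 3 values. The difference was -11.9 points with an FDR of 0.0117 in the quasi-binomial test moderated with limma, which missed the threshold of 0.01. It passed with a dispersion prior over all events (FDR 0.000146) and without the cKO value of 93.1% (-15.1 points, FDR 0.00179), and over all values left out in turn the difference lay between -15.1 and -8.72 points and the FDR reached 0.188 at most. The difference was -8.89 points with counts not divided by the form lengths, under the 10 points asked of a call.

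The called event was in the same place. A pair listed as mutually exclusive, Spidr exons 12 and 13, had an inclusion level of 85.4%, 89.5% and 81.9% in cKO, against 99.1%, 98.2% and 96.8% in Control, where inclusion stands for exon 12. The difference was -12.4 points (FDR 0.00539). This event and the skipping of exon 14 rest on the same junction, which joins exon 13 to exon 15, and the counts of their rarer form were alike, 14, 10 and 23 in cKO and 1, 2 and 2 in Control. They are thus not independent, and the lower level of the pair cannot be read as less use of exon 12. Exon 13 itself, tested as a skipped exon, was included at 95.4% in cKO and 97.6% in Control and did not pass (FDR 0.692). Leaving out 1 value moved the difference of the pair between -14.4 and -10.5 points, and its FDR rose above 0.01 without the cKO value of 85.4% (0.0165) or of 81.9% (0.0465) and without any of the Control values (0.0676, 0.0534 and 0.0137).

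In Xpa the exon of 192 bases between the regular exons belongs to a transcript annotated for nonsense-mediated decay, the process that degrades messages with an early stop codon. It was included at 6.05%, 9.80% and 8.97% in cKO, against 18.4%, 14.8% and 16.7% in Control. All 3 cKO values were below all Control values. Inclusion reads numbered 23, 45 and 53 in cKO and 49, 51 and 55 in Control, while skipping reads numbered 156, 181 and 235 in cKO and 95, 128 and 120 in Control. The difference was -8.36 points (FDR 0.0375), below the 10 points asked of a call. With counts not divided by the form lengths it was -14.3 points, at the same FDR. Without 1 value the FDR ranged from 0.0392 to 0.198. The summed expression of Xpa overlapped between the groups, as given above.

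**Figure D3:**
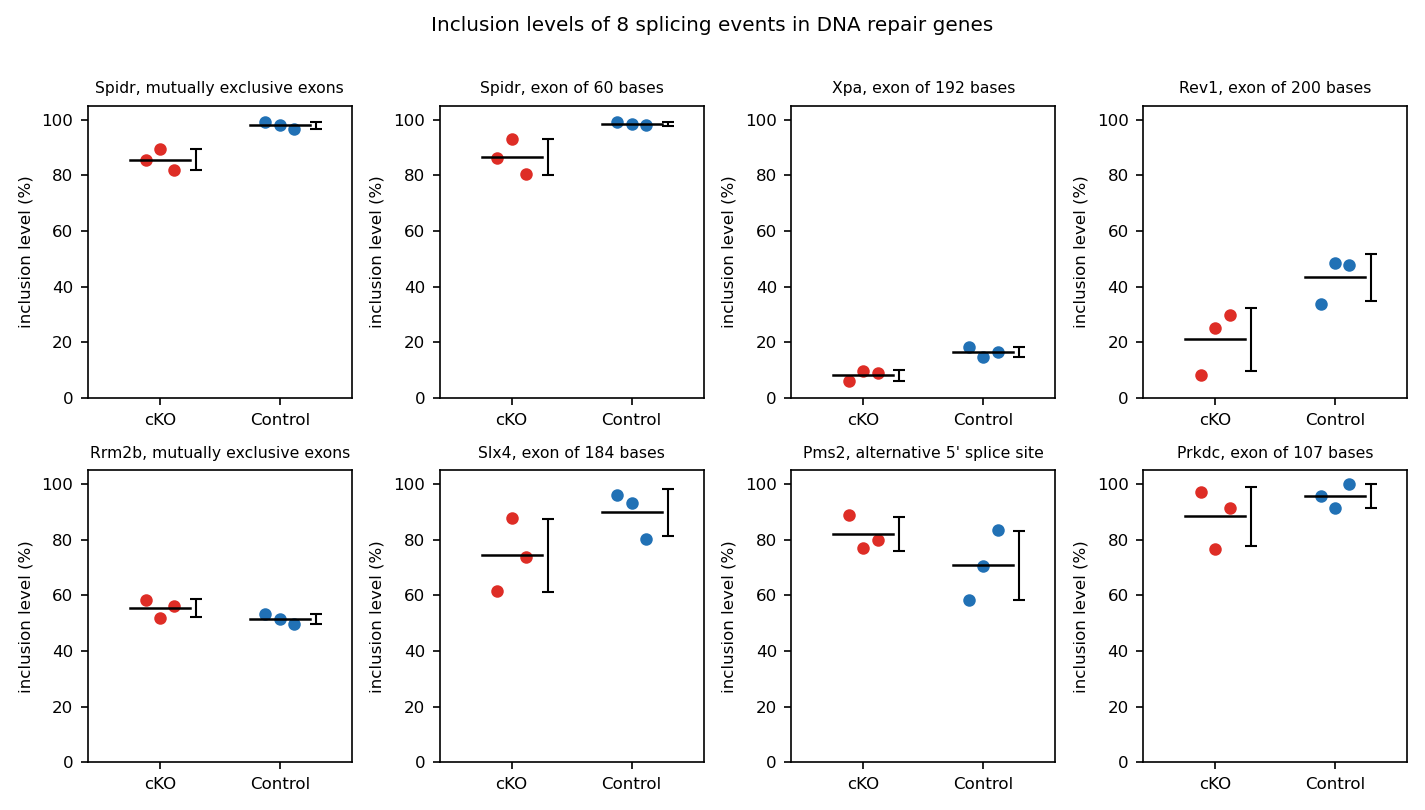
Inclusion levels in percent of 8 events, the 3 with an FDR under 0.05 (2 in Spidr and 1 in Xpa) and, for each remaining pathway, the tested event with the largest difference. Points are single values, horizontal lines are means of 3 values, and the bars beside them are the SD. The groups are separate in Spidr, Xpa and Rev1 and overlap in Rrm2b, Slx4, Pms2 and Prkdc.

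For pathways without an event at an FDR under 0.05, the event of largest difference was taken, so that its size is a description. In Rev1 an exon of 200 bases, which like that of Xpa belongs to a transcript annotated for nonsense-mediated decay, was included at 8.38%, 25.2% and 29.9% in cKO, against 33.7%, 48.7% and 47.8% in Control (FDR 0.646). The values did not overlap, but no value rested on more than 46 reads. In Slx4, exon 3 of 184 bases was included at 61.6%, 87.7% and 73.7% in cKO, against 96.1%, 93.3% and 80.1% in Control (FDR 0.633). With counts not divided by the form lengths the difference was -8.85 in place of -15.5 points. The ranges met because a cKO value of 87.7% was high and a Control value of 80.1% low. In Prkdc, exon 22 of 86 was included at 97.3%, 76.8% and 91.3% in cKO, against 95.6%, 91.3% and 100% in Control (FDR 0.648), and without the cKO value of 76.8% the difference was -1.36 points in place of -7.19, and with counts not divided by the form lengths it was -4.66. Pms2 used 1 of its alternative 5′ splice sites at 82.1% in cKO and 70.8% in Control (FDR 0.595), and a pair of mutually exclusive exons in Rrm2b differed by 4.04 points (FDR 0.694).

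Over all 188 cassette exon events of 30 members, which cover 170 exons that differ in start or end, none was called, beside 0.495% of all 39173 events tested. The FDR was under 0.05 for 2 of them, those of Spidr and Xpa, and 0.21 or more for the rest. At an unadjusted p under 0.05, the limma-moderated test gave 12 events with lower and 1 with higher inclusion in cKO. These 13 are 6.91% of the events tested, beside 8.78% of all events. They cover 10 exons when overlapping exons of a gene are counted once, and among all events at that p 81.4% had lower inclusion. The 3 cKO values lay below the 3 Control values in 19 events (10.1%, beside 8.61% of all events) and above them in 2 (1.06%, beside 2.19%). Of the 188, 119 (63.3%) had a negative difference, beside 65.6% of all events, and 160 (85.1%) were included at 95% or more in Control, beside 79.8%.

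**Figure D4:**
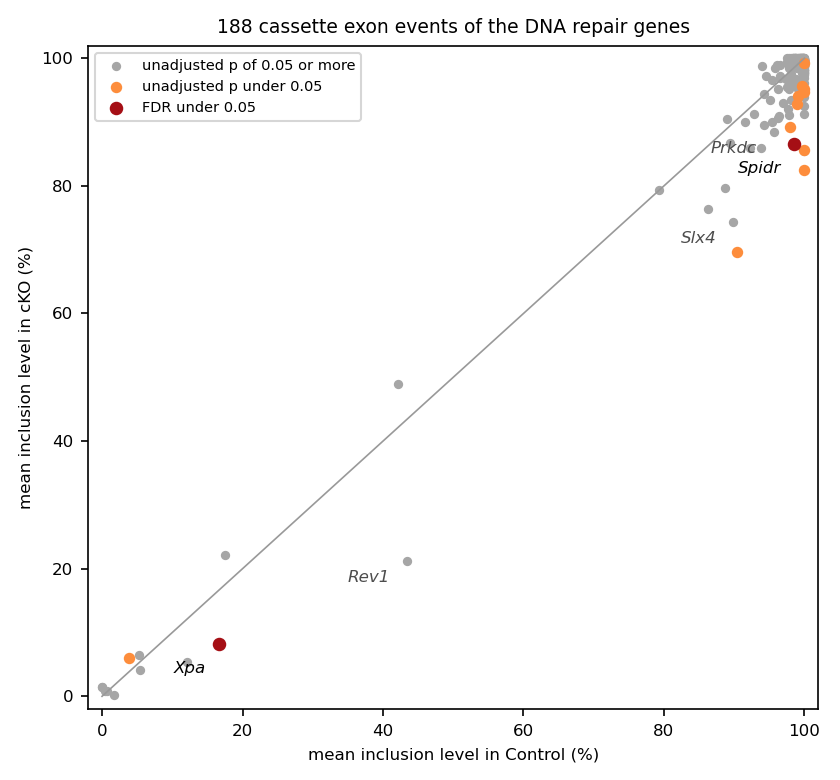
Mean inclusion level of 188 cassette exon events of the DNA repair genes in cKO (vertical axis, percent) against Control (horizontal axis, percent), with the line of equal inclusion. Most events sit at the upper right at 95% or more, the 13 events with an unadjusted p under 0.05 are coloured, and 12 of these lie below the line.

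By pathway, homologous recombination had 36 of 46 events with a negative difference and a median of -0.90 points, and mismatch repair, here 15 events of Pms2, had 12 with a negative difference and a median of -1.68 points. The Fanconi genes had 13 of 24 and a median of -1.75 points, nucleotide excision repair 23 of 35 and -0.33 points, and the translesion polymerases 16 of 28 and -0.50 points. End joining and single-strand break repair stood at 16 of 35 with a median of 0.09 points. These are descriptions of overlapping or neighbouring exons that share transcripts, and no difference between pathways was tested.

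The other classes held few events of these genes. None of 12 retained introns was called (0.181% of all retained introns were), none of 9 alternative 3′ splice sites (0.584%) and none of 10 alternative 5′ splice sites (1.08%). At an unadjusted p under 0.05, the limma-moderated test gave 0 retained introns (beside 9.02% of all retained introns), 3 alternative 3′ splice sites (33.3%, beside 10.5%) and 0 alternative 5′ splice sites (beside 12.7%). The 3 alternative 3′ splice sites had higher inclusion in cKO, while 61.5% of all alternative 3′ splice sites at that p had lower inclusion. Of 35 mutually exclusive pairs, 1 was called, that of Spidr, beside 0.25% of all pairs. Counted by gene, 1 of 30 members with a tested event had a call, beside 2.36% of 8192 genes. Members had a median of 7.5 tested events, beside 5 over all genes, and Spidr had 17. They thus had more chances of a call.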

How the data were processed

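CD4+ T cell RNA of 3 cKO and 3 Control mice was analysed. Per the labels and methods, the authors used cutadapt for trimming, STAR for alignment to GRCm38 (mm10) and counted reads per gene (GENCODE for GRCm38; the release used in counting and the use of strand are not stated there). In the expression file the deposited signal of a gene is its count divided by a DESeq2 size factor. Multiplied by 1 factor per library, 100% of values were whole reads within 0.01, and these reads went to edgeR and DESeq2. The deposited splicing tables are rMATS counts of inclusion and skipping reads, 3 values per condition with no library names. The authors' own fold changes, p-values and FDR columns were not used. All columns of samples were used.

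With limma 3.58.1 under R 4.3.3, log2(normalized count + 1) was compared for named genes whose mean reached 100 in cKO or in Control; this scale understates changes of low genes. P-values were adjusted (Benjamini-Hochberg) over all 11001 genes, with a threshold of 0.05. edgeR 4.0.16 and DESeq2 1.42.0 were alternatives. For splicing, events averaging 20 reads or more in each condition entered a quasi-binomial model of inclusion and skipping counts; limma moderated the dispersions, which were kept at 1 or more, with a prior from events averaging 5 reads or more of the rarer form. Calls needed an FDR under 0.01 and 10 points. Fits were also run on simulated data. For skipped exons the simulated spread was smaller than the prior dispersion of the fit to the real counts (2.40). Python steps used numpy 2.4.6, pandas 2.3.3, scipy 1.17.1 and matplotlib 3.10.9.

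The members and lists were chosen with earlier results of these data known. Values of every library are given for members called, with a called event, without overlap at an absolute log2 fold change of at least 0.5, or whose call changes with a count test or without 1 library; others were added for their role after their values were seen. Events named had an FDR under 0.05 or the largest difference of a pathway without one. A second row with the symbol Pms2 is annotated as Rsph10b in GENCODE M21 and was left out. Gene counts cannot separate overlapping genes. Replicates were separate mice per the methods, and each p reflects the spread among these 6 libraries.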

Additional observations from a re-analysis of the deposited data

How the results depend on the processing

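Under the 9 alternatives that keep all libraries (edgeR, DESeq2, a pseudocount of 10, 3 other filters, quantile normalization, TMM factors and robust variances), Polk stayed called, with log2 fold changes from 0.93 to 0.95. DESeq2 called 3 members in place of 1. Leaving out 1 library gave between 0 and 2 called members, a median log2 fold change of the members between -0.15 and -0.11, and a Polk value between 0.86 and 1.01. Over all genes the same fits called 128 without KO_7.8 and 26 to 36 without any other library, in place of 107. Quantile normalization gave a median of -0.15.

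Of the 37 genes, 27 kept their direction under all 15 alternatives, and Fanca kept it under the 13 in which it was tested. The other 9 did not keep it. All of them were uncalled, with log2 fold changes over all libraries from -0.15 (Ercc2) to 0.03 (Ercc5). Xpc turned to -0.00051 in edgeR, -0.027 under quantile normalization and -0.0032 with TMM factors. Parp1 turned to -0.0038 in edgeR, -0.0010 in DESeq2, -0.053 under quantile normalization and -0.0049 with TMM factors. Fancd2 turned to 0.0042 in edgeR and 0.0073 in DESeq2. Without 1 library the log2 fold changes ranged from -0.0058 to 0.047 for Ercc5, -0.061 to 0.074 for Xpc, -0.31 to 0.055 for Ercc2, -0.28 to 0.25 for Rev1, -0.29 to 0.13 for Fancd2, -0.22 to 0.041 for Slx4, -0.11 to 0.019 for Msh6, -0.043 to 0.050 for Parp1 and -0.12 to 0.13 for Prkdc. The cause was not tested.

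Called skipped exons of members numbered 1 in place of 0 with a dispersion prior over all events and with an FDR under 0.05, and 0 to 1 when 1 value was left out. Called events of the other classes, and members with a called event, numbered 0 to 1 when 1 value was left out. No paired analysis was possible because the labels pair no libraries.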
